A study of Mus musculus with 12 samples.

Results

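The shift in mRNA levels that persisted over 3 durations of p38-MAPK inhibition was measured in all 12 mRNA-Seq libraries of the series, 6 from blastocysts cultured with the p38-MAPK inhibitor SB220025 (20 µM, p38-MAPKi) and 6 from blastocysts cultured with the DMSO vehicle (control). Each arm was sampled in duplicate after 4, 7 and 10 h from E3.5, and the arms were compared with the hour as a block. A gene was tested where its deposited log2 RPKM (reads scaled by transcript length and library depth) was at least 0 in at least 2 of the 12 libraries, which held for 11590 of the 34245 genes listed. A gene was called where limma's test of the common effect gave an adjusted p under 0.05. It was termed separated at every hour where both inhibited libraries lay on the same side of both control libraries at 4, at 7 and at 10 h.

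All embryos came from F1 hybrid (C57Bl6 x CBA/W) females mated with F1 males, and were recovered at the 2-cell stage and grown in KSOM with amino acids until E3.5. Each library was made from the poly(A) RNA of a pool of 30 whole embryos, with a directional kit, so trophectoderm (TE), epiblast (EPI) and primitive endoderm (PrE) cells were measured together. Fewer cells of a type and less RNA per cell cannot be told apart in such pools. No RNA standard was added, so a level is relative to the other mRNAs of the pool and a uniform change in the RNA of the embryo is not visible. The arms were only ever compared at E3.5 and later, with 1 inhibitor at 1 dose. Nothing says that the duplicates came from separate litters, so the p-values measure the spread between pools of embryos.

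The p38-MAPKs are stress-responsive kinases that phosphorylate transcription factors such as ATF2 and kinases that control mRNA stability and translation. In the blastocyst, outer TE cells pump fluid into the cavity while inner cells become EPI or PrE under FGF signalling through ERK. Several other pathways act in the same cells: p53 and its targets halt the cell cycle or trigger apoptosis after stress, Hippo signalling sets where YAP and TEAD factors drive TE genes, and the ChREBP factor ties transcription to glucose.

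The read totals to which the libraries were scaled were 11242313 to 24457311, recovered from the size of 1 read in the deposited values. The shallowest was the p38-MAPKi 7 h replicate 1 library, with 14007 genes with a read against 16349 to 17651 in the others. Duplicates correlated with r of 0.969 to 0.981 across genes in the other 5 groups and 0.924 in the p38-MAPKi 7 h group. At 7 h, shorter transcripts were higher and longer ones lower after inhibition, from a median log2 difference of 0.47 in the 1159 shortest of the tested genes to -0.52 in the 1159 longest. At 4 h these medians were 0.22 and -0.17 and at 10 h they were -0.04 and 0.01. The part of transcript length in the results was examined by an alternative in which each library's length trend was removed, given below for the lists whose calls it altered by more than 1.5 times or in direction.

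**Figure D1:**
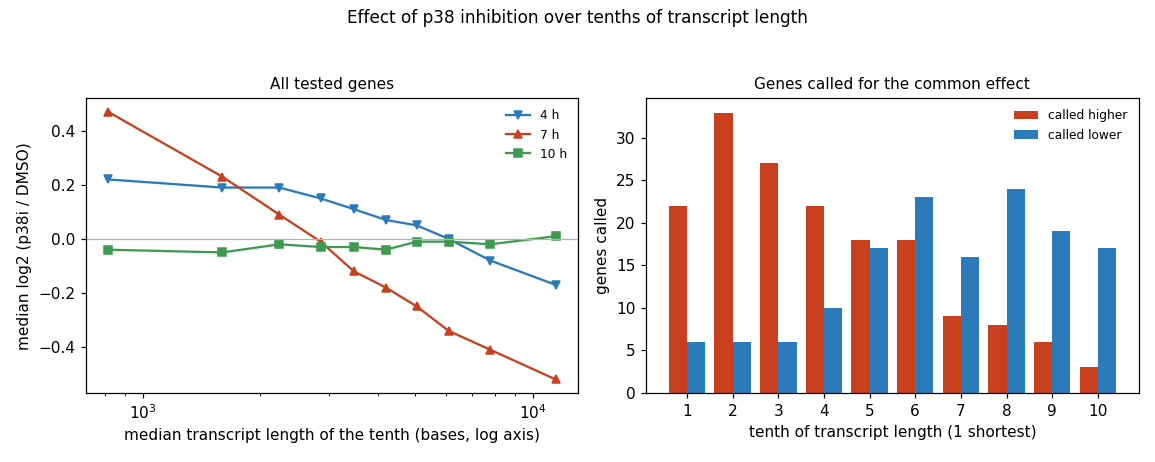
Median log2 ratio of p38-MAPKi to control for 10 bins of 1159 tested genes by transcript length at 4, 7 and 10 h (left, log length axis), and the number of genes called for the common effect in each bin (right). The line of the 7 h libraries runs from 0.47 to -0.52 while that of the 10 h libraries stays between -0.05 and 0.01; of the shortest bin, 22 genes were called higher and 6 lower, and of the longest, 3 higher and 17 lower.

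The common effect was called for 310 genes, 2.67% of those tested, with 166 genes above the control level (1.43%) and 144 below it (1.24%). In the same limma test, 2903 of the 11590 tested genes had an unadjusted p under 0.05. All 310 kept 1 sign at 4, 7 and 10 h, as a combined test favours; among all tested genes, 16.7% were higher and 19.9% lower at every hour by their group means. The arms were separated at every hour for 411 genes that were higher (3.55%) and 463 that were lower (3.99%), and 148 higher (1.28%) and 130 lower genes (1.12%) were both called and separated. Whatever the hour, the arms did not overlap over all 12 libraries for 247 of the tested genes. These included 69 genes called higher and 70 called lower. The shifts were modest, with a median log2 change of 0.65 for genes called higher and -0.57 for genes called lower, against -0.03 for all tested genes. They were largest at 7 h for 53% of the genes called higher and for 88.9% of those called lower, beside 62.2% of all tested genes. At 10 h, the medians had come down to 0.42 and -0.31. Genes called higher had a median transcript length of 2568 bases and genes called lower one of 4665 bases, against 3836 bases for all tested genes.

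**Figure D2:**
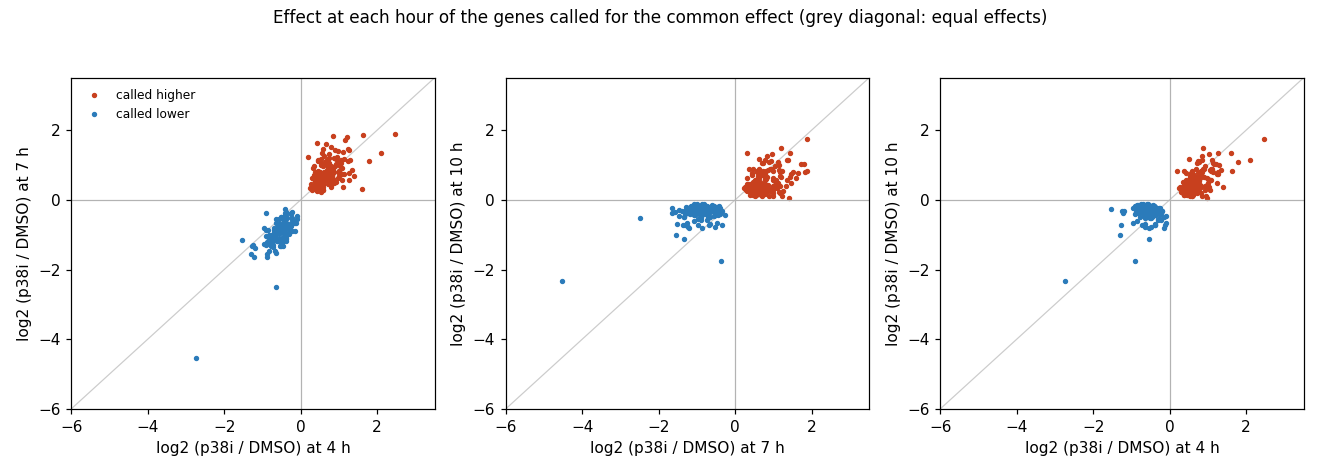
The log2 ratio of p38-MAPKi to control at 2 of the hours for each of the 310 genes called for the common effect, higher in red (166) and lower in blue (144). All points lie where both hours have the same sign, and most genes called lower lie further from 0 at 7 h than at 4 or 10 h.

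The count rested most on the 4 and 7 h libraries. It was 5 genes without the 4 h libraries, 20 without the 7 h libraries and 282 without the 10 h libraries, of which 163 were among the 310. Removing the length trend gave 648, of which 290 were among the 310. Without single libraries it was 118 and 86 without control 4 h replicates 1 and 2, 587 and 96 without p38-MAPKi 4 h replicates 1 and 2, 64 and 111 without control 7 h replicates 1 and 2, 66 without p38-MAPKi 7 h replicate 2, 146 without control 10 h replicate 2 and 120 without p38-MAPKi 10 h replicate 2. The shallow p38-MAPKi 7 h replicate 1 library altered it less, to 229 genes. A direct test of whether the effect differed between hours called 0 genes (limma F test over the hour-by-treatment terms), although 1931 genes (16.7%) had an unadjusted p under 0.05. That count was 1 without p38-MAPKi 7 h replicate 1 and 677 without p38-MAPKi 7 h replicate 2, so it rested on which 7 h library was kept. Of the genes called lower, 36.1% had an unadjusted p under 0.05 in that test, and of those called higher, 13.3%.

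Among the genes with a lasting rise, the 12 named by the size of their smallest hourly effect were Pomc, Slc30a2, Atg9b, Txnip, Plk2, Hyal1, Mlana, Tpsg1, Gpx3, Tap1, Btg2 and Eng. They rose 1.89- to 2.73-fold in common, and none shifted by less than 0.74 on the log2 scale at any hour. Their largest hourly effect fell at 4, 7 and 10 h in 4 genes each. All 12 kept the higher direction in every alternative in which they were tested. Their choice by separation at every hour fixes this where libraries are left out. Calls varied more: Tpsg1 was called in the fewest alternatives, 15 of 26, and Plk2 in the most, all 27.

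Plk2, a polo-like kinase that p53 induces, had the smallest adjusted p. It was at 5.80 and 6.79 RPKM in the control and 19.0 and 13.1 RPKM in the p38-MAPKi libraries at 4 h. At 7 h it was at 11.3 and 12.1 against 20.1 and 22.4 RPKM, and at 10 h at 12.2 and 9.90 against 19.4 and 20.2 RPKM. Every inhibited library thus lay above every control library, whatever the hour, with a common log2 change of 1.01 ± 0.119 (SE, limma adjusted p = 0.00419, 6 libraries an arm). Plk2 (13:110395046-110400844, + strand, GRCm38) was called in all 27 alternatives. Btg2, an antiproliferative p53 target, rose from 11.96 and 14.9 RPKM to 36.9 and 28.1 RPKM at 4 h. It was at 21.2 and 21.9 against 38.1 and 36.2 RPKM at 7 h and at 28.9 and 22.0 against 44.2 and 40.3 RPKM at 10 h. The arms were apart at each hour although the control level itself was higher at 10 h than at 4 h (log2 change 0.93 ± 0.117, limma adjusted p = 0.00493).

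Txnip, which binds thioredoxin and limits glucose uptake, was at 5.77 and 12.5 RPKM in the 4 h controls against 15.3 and 16.3 RPKM. At 7 h the values were 12.4 and 11.04 against 24.4 and 21.6 RPKM, and at 10 h they were 20.7 and 16.1 against 33.7 and 33.5 RPKM. Within each arm the 10 h levels lay above the 4 h levels of the same arm. The arms differed by 0.89, 0.97 and 0.88 on the log2 scale at the successive hours (common log2 change 0.91 ± 0.15, limma adjusted p = 0.0119). Mlxipl, which encodes the glucose-responsive factor ChREBP that acts on Txnip, was low, at 0.972 to 1.47 RPKM (median 1.29) in the control and 2.39 to 4.94 RPKM (median 2.84) in the p38-MAPKi libraries. Its arms did not overlap over the 12 libraries (log2 change 1.35 ± 0.18, limma adjusted p = 0.00645). Of the 7 genes listed as ChREBP-related factors and targets, these 2 were called higher (28.6%, beside 1.43% of all tested genes) and none lower. The median log2 change of the 7 was -0.02. Arrdc4, another ChREBP target and named here after its values were seen, was separated at every hour but not called (log2 change 0.91 ± 0.229, limma adjusted p = 0.0531). The Txnip gene carries in the 250 bases before its RefSeq start a pair of CACGNG boxes 5 bases apart, the arrangement that ChREBP recognises, and Mlxipl carries a plain CACGTG there. They are shown for these 2 genes with the boxes in capitals, from the GRCm38.p6 table of RefSeq promoters, at chr3:96557852-96557908 (+) and chr5:135089772-135089817 (+).
Txnip: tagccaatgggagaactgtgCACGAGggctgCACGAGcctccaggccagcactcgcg
Mlxipl: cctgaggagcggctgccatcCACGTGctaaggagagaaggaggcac
The paired boxes, searched on both strands, were found in 9 of 8669 tested genes with a promoter (0.104%), and CACGTG in 12.1% of them. Of the called and separated genes, CACGTG was in 9.65% of those higher and 13.3% of those lower.

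The other genes of this group came from unrelated functions. Slc30a2, a zinc exporter, lay at 1.39 to 2.75 RPKM (median 2.12) in the controls and 3.41 to 5.20 RPKM (median 4.71) after inhibition, with no overlap (log2 change 1.14 ± 0.167, limma adjusted p = 0.00817). Mlana, a melanosome protein, rose from a median of 2.82 to 6.75 RPKM, also without overlap, and had the widest change of the 12 (2.73-fold, limma adjusted p = 0.0193). Its spread was wide too, since its 7 h inhibited libraries were at 16.6 and 7.83 RPKM. Pomc, the precursor of ACTH and other peptide hormones, lay at 1.499 to 2.83 RPKM (median 1.98) in the controls and 2.81 to 8.57 RPKM (median 4.86) after inhibition. Its arms were separated within each hour but overlapped between hours. Tap1, the transporter that loads peptides onto MHC class I, rose from a median of 3.96 to 7.73 RPKM (log2 change 0.91 ± 0.14, limma adjusted p = 0.0091), and Gpx3, a secreted glutathione peroxidase, from 14.2 to 32.2 RPKM (0.93 ± 0.185, adjusted p = 0.0252). Atg9b, an autophagy membrane protein, Hyal1, a lysosomal hyaluronidase, Tpsg1, a tryptase, and Eng, a co-receptor of the TGF-β family, rose 1.95-, 1.97-, 2.05- and 1.90-fold. Hyal1 shares 2824 bases of its span with Nat6 on the same strand, whose reads are 125% of its own, so its reads are uncertain. Eng and Tap1 each overlap a gene on the opposite strand (Fpgs and Psmb9), and whether strand was used in counting is not given in the sources used here.

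**Figure D3:**
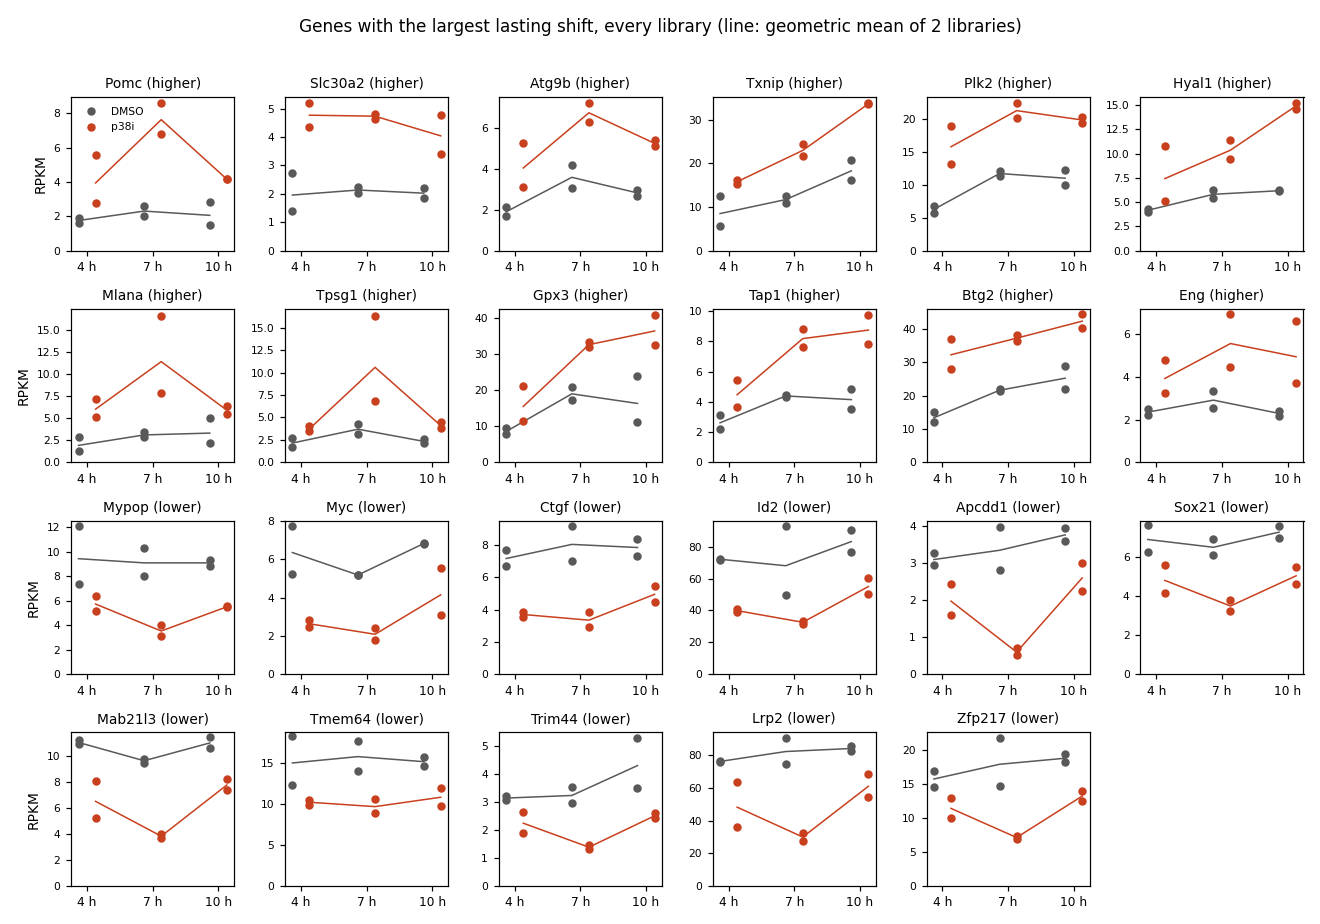
RPKM of the 23 named genes with the largest lasting shift in each of the 12 libraries by hour, control in grey and p38-MAPKi in red, with lines through the geometric mean of the duplicates. Red points lie above both grey points of their hour in the 12 genes marked higher and below them in the other 11.

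Among the genes with a lasting fall, the 11 named were Mypop, Myc, Ctgf, Id2, Apcdd1, Sox21, Mab21l3, Tmem64, Trim44, Lrp2 and Zfp217. They fell to 0.428- to 0.667-fold of control, with the largest difference at 7 h in 11 of 11. Their least hourly effect, 0.46 to 0.72 on the log2 scale, was smaller than that of the genes that rose. In 8 of the 11 the arms did not overlap over all 12 libraries. This held for 70 of the 144 genes called lower and for 247 of all 11590 tested.

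Myc, the growth-promoting transcription factor, was at 5.23 and 7.72 RPKM in the 4 h controls and 2.45 and 2.83 RPKM after inhibition. It was at 5.16 and 5.20 against 1.80 and 2.41 RPKM at 7 h, and at 6.79 and 6.86 against 3.11 and 5.52 RPKM at 10 h. The inhibited libraries were the lower ones at each hour, although 1 of them at 10 h came within the range of the 4 h controls (log2 change -1.10 ± 0.169, limma adjusted p = 0.0091). Mypop, a Myb-related factor, fell from a median of 9.09 to 5.31 RPKM (log2 change -0.94 ± 0.154, limma adjusted p = 0.0122) and overlaps only antisense genes with few reads. Sox21, an HMG-box factor, fell from 6.94 to 4.38 RPKM (-0.65 ± 0.12, adjusted p = 0.0191), and Zfp217, a zinc-finger factor, from 17.6 to 11.3 RPKM (-0.77 ± 0.152, adjusted p = 0.0252). Lrp2, the endocytic receptor megalin, an early PrE marker, was high, at 74.7 to 91.0 RPKM (median 79.9) in the controls and 27.6 to 68.5 RPKM (median 45.5) after inhibition. Its log2 difference was -0.66 at 4 h, -1.46 at 7 h and -0.46 at 10 h. Its transcript is 16701 bases long, and with the length trend removed its common change was -0.60 rather than -0.86, and it was still called. Apcdd1, a Wnt inhibitor, was down to 0.508 and 0.697 RPKM in the 7 h inhibited libraries against 2.83 and 3.98 RPKM in the controls. It was the least stable of the 11, called in 9 of 26 alternatives.

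The p53 targets formed the list with the most calls. Of 31 genes listed, 29 were tested and 10 were called higher, 34.5% beside 2.67% of all tested genes, and none lower; the list was drawn up with earlier results of these data known. Their median log2 change was 0.35, with 0.46 at 4 h, 0.23 at 7 h and 0.26 at 10 h. Of the 29, 19 were higher at every hour, beside 16.7% of all tested genes. The summed RPKM of the list was 713 to 985 in the 6 control libraries and 1020 to 1290 in the 6 p38-MAPKi libraries, without overlap. The called genes were 4 that brake the cell cycle (Plk2, Btg2, Psrc1 and Cdkn1a), 4 of apoptosis (Phlda3, Bbc3, Pmaip1 and Perp), and Mdm2 and Ercc5. The count was 17 with the length trend removed and 10 without p38-MAPKi 7 h replicate 1. It was 1, 4 and 7 without the 4, 7 and 10 h libraries, in each case all higher.

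Phlda3, a repressor of AKT, was at 47.0 and 53.7 RPKM in the 4 h controls against 102.4 and 99.6 RPKM after inhibition. It was at 86.1 and 61.3 against 161 and 145 RPKM at 7 h, and at 69.1 and 66.9 against 94.8 and 96.6 RPKM at 10 h, so that no inhibited library fell into the control range (log2 change 0.86 ± 0.112, limma adjusted p = 0.00641). Bbc3, which encodes the BH3-only death protein PUMA, had a median of 13.7 RPKM in the controls and of 22.7 RPKM after inhibition, without overlap. Its log2 difference was 1.07 at 4 h, 0.57 at 7 h and 0.58 at 10 h (common 0.74 ± 0.116, limma adjusted p = 0.00998). Pmaip1, which encodes the related NOXA, rose 1.48-fold (adjusted p = 0.0149). Bbc3 and Pmaip1 were the called members among 20 tested BCL2 family and caspase genes (10%, beside 2.67% of all tested genes). None of the 5 tested survival genes was called. With the length trend removed 4 of the 20 were called higher. Ercc5, a repair nuclease, had a log2 change of 0.61 ± 0.11 (limma adjusted p = 0.0189), and Mdm2, the ubiquitin ligase that holds p53 down, one of 0.36 ± 0.0852 (adjusted p = 0.0423). Cdkn1a, the cyclin-dependent kinase inhibitor p21, had one of 0.35 ± 0.0837 (adjusted p = 0.0417) and carried the only p53 decamer, a motif with a CATG core, among the promoters found for 8 of the called p53 targets. It is shown in capitals, at chr17:29090908-29090957 (+), before 1 RefSeq start. Another RefSeq promoter of Cdkn1a, at chr17:29093519-29093818 (+), did not hold it.
Cdkn1a: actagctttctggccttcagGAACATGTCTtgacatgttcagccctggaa
This motif was in 1.34% of all tested promoters and in 1.75% of those of the called and separated genes that were higher, against 3.06% of those that were lower. Trp53 itself was not called (log2 change -0.19 ± 0.0882, limma adjusted p = 0.207), and Gdf15, a secreted stress cytokine named here after its values were seen, was higher by 1.75 and 1.59 on the log2 scale at 4 and 7 h but by 0.07 at 10 h, and was not called (limma adjusted p = 0.0565).

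Hippo pathway members and YAP targets fell in part. Of 33 listed, 21 were tested, 4 were called lower (19%, beside 1.24% of all tested genes) and none higher. The median log2 change was -0.38, with -0.37, -0.78 and -0.05 at the successive hours. At every hour 10 of the 21 were lower and 5 higher, beside 19.9% and 16.7% of all tested genes. The list's genes are long, with a median of 6289 bases; with the length trend removed 5 were called lower and 1 higher. It was 0, 1 and 5 called without the 4, 7 and 10 h libraries and 2 without p38-MAPKi 7 h replicate 1. Ctgf, a secreted matrix protein and classical YAP target, was at 7.67 and 6.70 RPKM in the 4 h controls against 3.52 and 3.88 RPKM. It was at 7.04 and 9.19 against 2.89 and 3.87 RPKM at 7 h and at 8.39 and 7.34 against 4.49 and 5.45 RPKM at 10 h, with the arms apart over all 12 libraries (log2 change -0.96 ± 0.132, limma adjusted p = 0.00652). Amotl2, an angiomotin that retains YAP and is itself a target, fell from a median of 25.2 to 10.0 RPKM (log2 change -1.09 ± 0.188, limma adjusted p = 0.0149). Its difference narrowed from -1.23 at 4 h and -1.65 at 7 h to -0.38 at 10 h. Vgll4, a TEAD cofactor that competes with YAP, and Lats2, the kinase that phosphorylates YAP, had log2 changes of -0.70 ± 0.155 and -0.66 ± 0.162 (limma adjusted p = 0.0351 and 0.046), most of it at 4 and 7 h. Lats2 shares 23354 bases with Xpo4 on its own strand. Yap1 was not called (0.11 ± 0.0936, adjusted p = 0.477). The TEAD motif ACATTCC stood once before a RefSeq start of Amotl2, shown in capitals at chr9:102717718-102717764 (+). This stretch lies inside the gene's listed span, which begins at 102716672. The motif was in 3.28% of all tested promoters. Among the called and separated genes, it was in 2.04% of the promoters of those lower and in 3.51% of those higher.
Amotl2: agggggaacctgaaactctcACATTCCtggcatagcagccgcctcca

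Of the 15 tested FGF receptors and ERK feedback genes, 4 were called lower (26.7%, beside 1.24% of all tested genes) and none higher. Their median log2 change was -0.45 (-0.30, -0.77 and -0.08 at the successive hours). Dusp4, a phosphatase of ERK, fell from 8.90 to 15.3 RPKM (median 11.3) in the controls to 5.00 to 8.60 RPKM (median 6.78), without overlap (log2 change -0.74 ± 0.149, limma adjusted p = 0.0253). Spry2 and Spred2, inhibitors of the same cascade, were also apart over all 12 libraries, with log2 changes of -0.41 ± 0.0848 and -0.45 ± 0.113 (limma adjusted p = 0.028 and 0.0494). Fgfr2 had one of -0.56 ± 0.127 (adjusted p = 0.036), but its listed span runs from 130162451 to 133123350 on chromosome 7 and covers many other genes. No member was called without the 4 h or without the 7 h libraries, 3 without p38-MAPKi 7 h replicate 1 and 5, all lower, with the length trend removed. Fgf4, the ligand, was not called (-0.17 ± 0.128, adjusted p = 0.414).

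**Figure D4:**
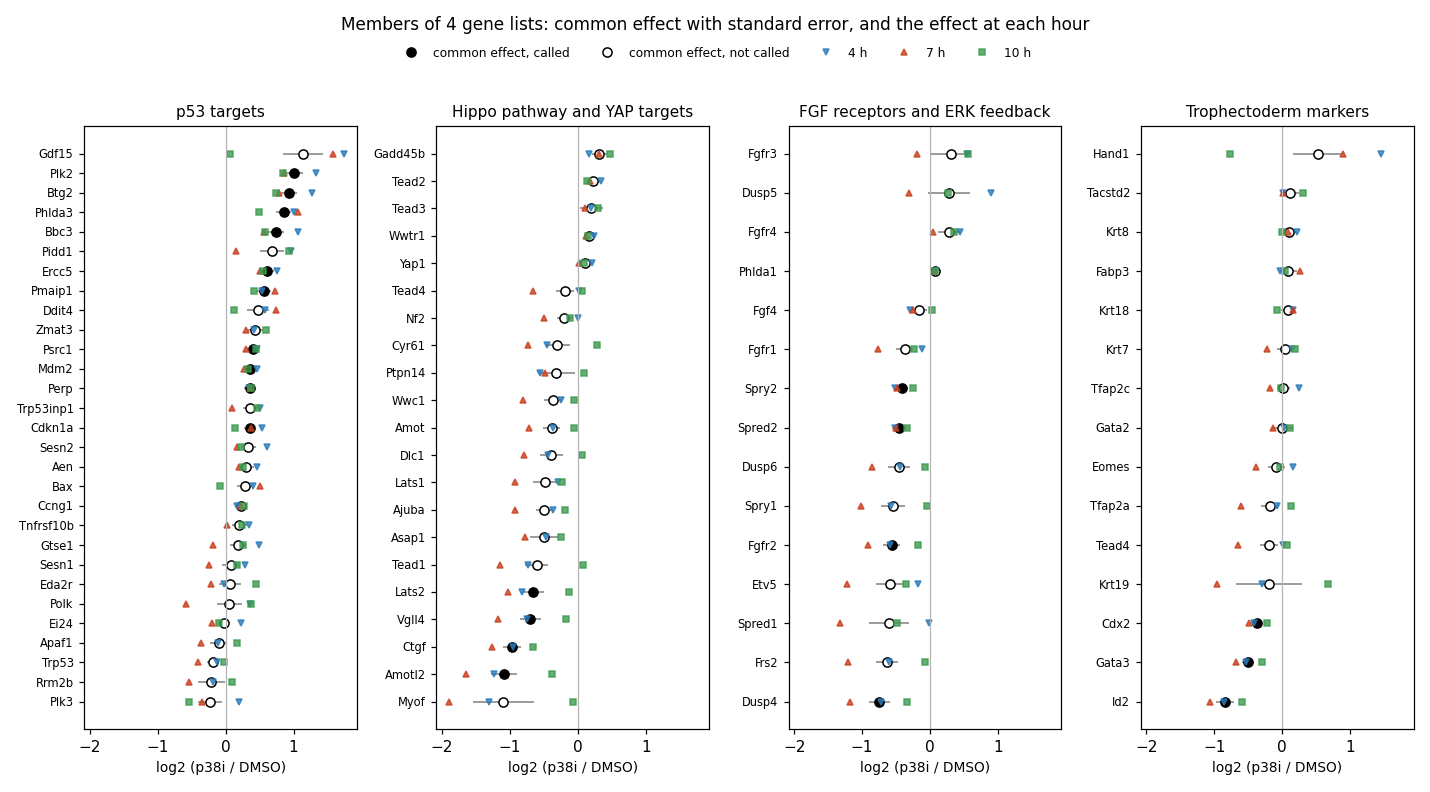
Common log2 ratio of p38-MAPKi to control with its SE for tested members of 4 gene lists (filled where called), and the ratio at 4, 7 and 10 h as coloured marks. Of 29 p53 targets, 19 lie right of 0 at every hour, while in the Hippo and FGF lists most 7 h marks lie left of the 4 and 10 h marks.

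Lineage markers moved in few members. Of 15 tested TE markers, 3 were called lower (20%, beside 1.24% of all tested genes), and the median log2 change was 0.00. These were Id2, an inhibitor of bHLH factors, and Gata3 and Cdx2, transcription factors of the TE. Id2 was at 49.8 to 93.3 RPKM (median 74.5) in the controls and 31.6 to 60.1 RPKM (median 39.9) after inhibition (log2 change -0.84 ± 0.135, limma adjusted p = 0.0117). Gata3 fell from a median of 105 to 68.9 RPKM (-0.51 ± 0.0902, adjusted p = 0.0169) and Cdx2 from 206 to 158 RPKM (-0.38 ± 0.0831, adjusted p = 0.0336), the latter without overlap. The keratins Krt8 and Krt18, which mark TE cells, had changes of 0.10 ± 0.101 and 0.08 ± 0.10 and were not called. The summed RPKM of the TE list was 2210 to 3250 in the controls and 2360 to 3130 after inhibition. Of 18 tested PrE markers only Lrp2 was called (5.56%, beside 2.67% of all tested genes). The summed RPKM of that list was 361 to 450 against 297 to 445. Of 19 EPI markers limma called 0, with 2530 to 2990 against 2440 to 4400. At an unadjusted p under 0.05 there were 8 EPI markers, beside 2903 of all 11590 tested genes. With the length trend removed, 2 markers each of PrE and EPI and 2 junction and cavity genes were called, all lower. Of 25 junction and cavity genes, 1 was called (4%, beside 2.67% of all tested genes). This was Atp1b1, a subunit of the sodium pump, which was lower (log2 change -0.44 ± 0.099, limma adjusted p = 0.0358). Of 18 markers of maternal somatic cells, 1 passed the filter and 6 had no read in any library, and their summed RPKM was 4.32 to 7.14 in the controls and 4.56 to 9.49 after inhibition. Among 12 genes of LIF-STAT3 signalling, only Socs1, a brake on it, was called (8.33%, beside 2.67% of all tested genes). It was lower without overlap (-0.57 ± 0.104, limma adjusted p = 0.0189).

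The transcripts of the inhibited cascade itself shifted little. Mapk14, which encodes p38α and was the p38 kinase with the highest level, lay at 23.6 to 26.7 RPKM in the controls and 18.9 to 28.5 RPKM after inhibition (log2 change -0.05 ± 0.0905, limma adjusted p = 0.73). Mapk13 and Mapk11 were not called either (adjusted p = 0.138 and 0.214), and Mapk12 did not pass the filter. Of 21 tested cascade genes, 2 were called (9.52%, beside 2.67% of all tested genes), both lower and both downstream. Atf2, a transcription factor that p38 phosphorylates, fell from a median of 5.25 to 3.33 RPKM without overlap (log2 change -0.71 ± 0.131, limma adjusted p = 0.0189). Zfp36, an mRNA-decay factor regulated by the p38 cascade, fell from 4.73 to 3.67 RPKM (-0.47 ± 0.113, adjusted p = 0.0436). With the length trend removed, 1 cascade gene was called higher as well.

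Immediate early genes went both ways. Of 16 tested, Btg2 and Ier2 were called higher and Myc, Ier3 and Midn lower (31.2% called, beside 2.67% of all tested genes). Ier2 rose from 28.2 to 38.5 RPKM (median 36.9) in the controls to 44.8 to 86.6 RPKM (median 65.3) without overlap (log2 change 0.83 ± 0.128, limma adjusted p = 0.0093). Ier3 had log2 differences of -0.90, -0.38 and -1.77 at the successive hours, and was thus lowest against control at 10 h (common -1.01 ± 0.223, adjusted p = 0.0336).

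Stress and metabolic lists had 0 to 2 members called each. Of all tested genes, 2.67% were called. Ddit3, which encodes the stress factor CHOP, was at 5.29 and 7.42 RPKM in the 4 h controls against 13.2 and 16.2 RPKM. It was at 8.18 and 6.48 against 21.6 and 18.9 RPKM at 7 h and at 6.38 and 7.60 against 12.2 and 10.98 RPKM at 10 h, with the arms apart over all libraries (log2 change 1.14 ± 0.138, limma adjusted p = 0.00419). It was the only called gene among 25 tested of the integrated stress response, whose median log2 change was -0.02, and it overlaps Mars on the opposite strand by 68 bases. Limma called 0 of 22 genes of the ER unfolded protein response and 0 of 19 Nrf2 antioxidant genes. At an unadjusted p under 0.05 there were 6 and 3 of them, beside 2903 of all 11590 tested genes. With the length trend removed, 3 genes of the unfolded protein response were called lower, 4 of the integrated stress response were called, 2 in each direction, and no Nrf2 gene was. Hk2, a hexokinase, fell from 36.8 to 44.8 RPKM in the controls to 17.1 to 34.4 RPKM (log2 change -0.67 ± 0.11, limma adjusted p = 0.0123) and Slc2a1, the glucose transporter GLUT1, from 41.7 to 28.5 RPKM (-0.54 ± 0.0996, adjusted p = 0.0189), both without overlap, while the other 14 tested genes of glucose uptake and glycolysis were not called. Of 31 genes of cholesterol and fatty acid synthesis, 2 were called higher (6.45%, beside 1.43% of all tested genes), among them Pmvk, a kinase of the mevalonate pathway (1.62-fold). Of the 31, 15 were higher at every hour, beside 16.7% of all tested genes. The median log2 change of that list was 0.54 at 4 h, 0.16 at 7 h and 0.11 at 10 h, and with the length trend removed 9 were called higher. Ubtf, a factor of ribosomal DNA transcription, was the only one called of 33 ribosome biogenesis genes, from a median of 53.5 to 71.0 RPKM without overlap (log2 change 0.41 ± 0.0772, limma adjusted p = 0.0196). Mt2, a metallothionein, rose 1.63-fold (adjusted p = 0.0291), mostly at 7 h.

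Of 79 cytosolic ribosomal protein genes, limma called 0 and 37 had an unadjusted p under 0.05, beside 2903 of all 11590 tested genes. Their median log2 change was 0.29. That median was 0.26 at 4 h, 0.68 at 7 h and -0.10 at 10 h, so it did not last. The 75 tested genes of the respiratory complexes and ATP synthase had similar medians (0.18, 0.66 and -0.03), again with 0 called and 32 at an unadjusted p under 0.05. The lists differed in single genes: 8 of 79 ribosomal and 26 of 75 respiratory genes were higher at every hour, beside 16.7% of all tested genes. Lower at every hour were 0 and 2, beside 19.9%. Both lists hold short transcripts, with median lengths of 1739 and 1701 bases. Of 78 mitochondrial ribosomal proteins, Mrps6 alone was called (1.28%, beside 2.67% of all tested genes). It was higher (log2 change 0.51 ± 0.113, limma adjusted p = 0.0345) and shares its span with Slc5a3 on the same strand. With the length trend removed, 2 of the 78 were called higher, and 2 ribosome biogenesis genes were called, 1 in each direction. Limma called 0 members among 37 proteasome, 23 autophagy, 20 lysosome and 15 chaperone genes. Of these, 3, 3, 8 and 4 had an unadjusted p under 0.05, beside 2903 of all 11590 tested genes. With the length trend removed, 1 autophagy gene and 3 chaperone genes were called lower and 2 lysosome genes higher, and 0 proteasome, cytosolic ribosomal and respiratory genes were called. Of 26 replication-dependent histone genes, Hist1h1c was called lower (0.636-fold, limma adjusted p = 0.0387), and of 8 genes of BMP signalling only Id2. These were 3.85% and 12.5% of the lists, beside 2.67% of all tested genes called.

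**Figure D5:**
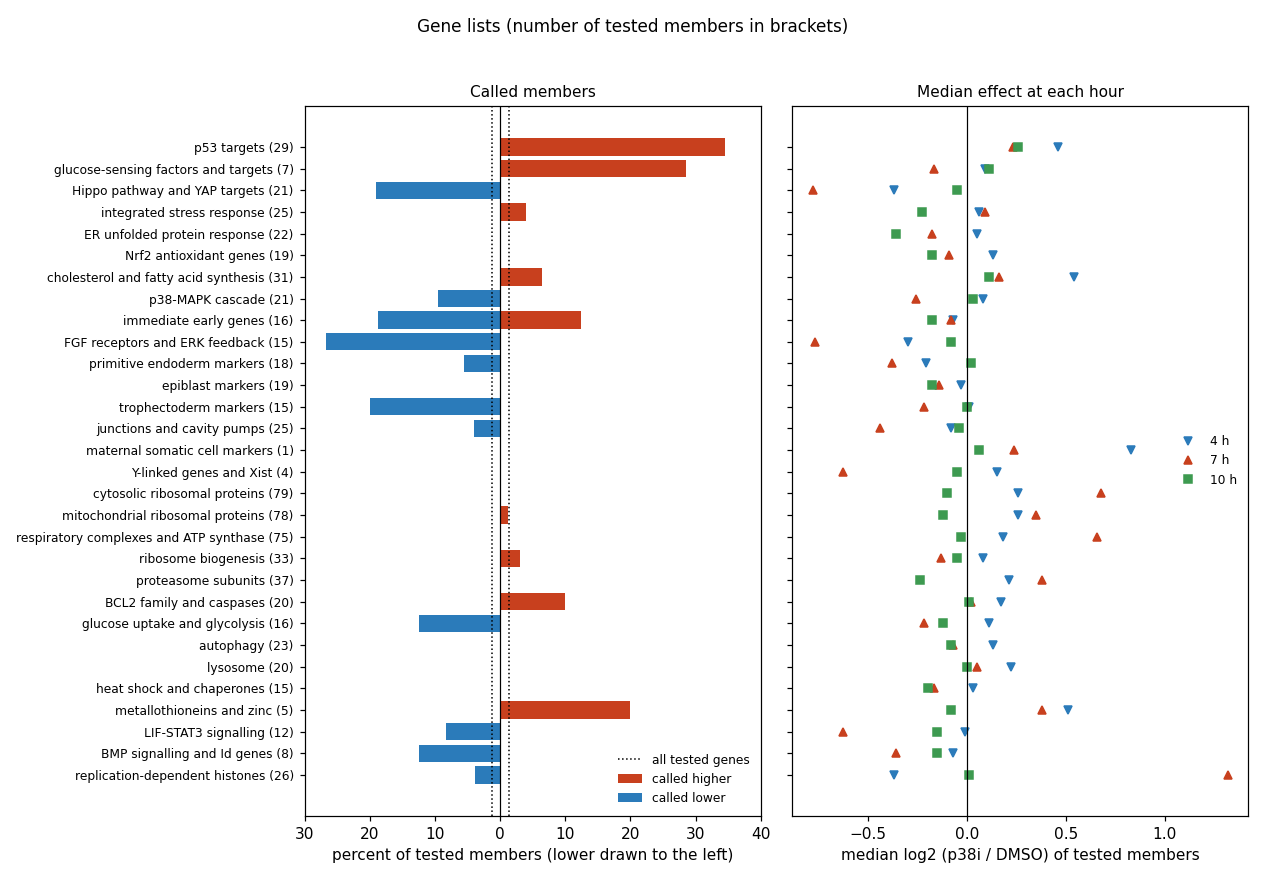
Percent of tested members called higher (red, right) or lower (blue, left) in each gene list with the share in all tested genes dotted (left), and the median log2 ratio of p38-MAPKi to control at each hour (right). The p53 targets reach 34.5% called higher and the FGF list 26.7% called lower; in the ribosomal and respiratory lists the 7 h median lies at 0.68 and 0.66 and the 10 h median near 0.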

How the data were processed

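Libraries of poly(A) RNA were sequenced as 50 bp single reads. The submitters trimmed reads with Trim Galore 0.4.1, mapped them to GRCm38 with HISAT2 2.0.5 and quantified genes in SeqMonk; the authors deposited log2 RPKM values for each library, and whether strand or multiply mapped reads were used in counting is not given in the sources used here. These values were tested as deposited with limma 3.58.1 (R 4.3.3; variance trend, hour as a block, Benjamini-Hochberg adjustment), on 6 libraries an arm. The difference between hours was tested by an F test in the same libraries. Reads were recovered from the value of a gene without a read (0.9 read) and gave each library's depth. The test was checked on simulated data. The members and gene lists were chosen with earlier results of these data known. Genes named were, of those called, separated at every hour and averaging at least 1 log2 RPKM, the 12 per direction with the largest smallest-hour effect; up to 4 called members per list by adjusted p, or 2 uncalled ones; and the p38 kinases. Other list members named were chosen after their values were seen. Unnamed gene models were counted only, and single-gene results of 2 genes are not reported here. Promoters were matched by symbol for 8669 tested genes. The paired boxes were chosen after the data were seen.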

Additional observations from a re-analysis of the deposited data

How the results depend on the processing

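The direction of the 23 genes named for a lasting shift held in all alternatives. Their choice by separation at every hour fixes this where libraries are left out. The calls did not hold. Of the 24 genes that the naming rule picked, 3 were still called without the 4 h libraries. Without the 7 h libraries 4 were, and without the 10 h libraries 17. The 310 called genes became 121 without the variance trend, 584 with median centring, 685 with quantile normalization, 9 without the filter, 648 with the length trend removed, 726 with library weights, 22 at a threshold of 0.01, 5 without the 4 h libraries, 20 without the 7 h libraries and 66 with the length trend removed and the 7 h libraries left out, an alternative added after seeing the data. They numbered 64 to 587 when 1 library was left out. The 278 called and separated genes became 120, 496, 549, 9, 553, 420, 22, 5, 20 and 66 in the same order, and 63 to 505. With the replicate number as a replicate block, 76 genes were called and 69 of them separated. The correlation of same-numbered deviations across genes was -0.015, 0.089 and 0.139 at 4, 7 and 10 h. With 1 difference per arm and hour, it cannot decide whether same-numbered pools shared an origin. The sources used here do not say. The test between hours called 1 gene without the variance trend, 9 without the filter and 1 at 10 RPKM or more, and 0 to 677 when 1 library was left out. Changes of uncalled genes turned sign in Mapk14 (0.0027 with library weights, 0.0483 without the 7 h libraries, -0.0896 to 0.0189 when 1 library was left out, the latter without p38-MAPKi 7 h replicate 1, 0.0201 with the length trend removed and the 7 h libraries left out) and, in the last setting, in Uty (0.0413), Rpl38 (-0.0543), Rpl39 (-0.0366) and Atp5e (-0.0269). The causes were not tested.

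Duplicates limit precision: 2 pools an arm and hour leave little room for tests within an hour, and only genes at 1 RPKM or more in at least 2 of the 12 libraries were tested.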
